A study of Mus musculus with 12 samples.

Results

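Of 45281 probes on each array, 95 were higher after 15 days of infusion than after 5 days in every pool of triceps muscle, whether the pump held 20-hydroxyecdysone (20E) or saline. A probe was taken when its detection p-value was under 0.05 on all 12 arrays, meaning that it stood above negative control beads; members were thus selected on their levels in the deposited log2 table. Its lowest log2 level among the 6 arrays of 15 days had to exceed its highest among the 6 arrays of 5 days, and the means of the 2 durations had to differ by at least 0.3. The 300 probes with the highest mean level were left out, which left 14478 probes that could meet the rule, and 0.656% of them met it. In the opposite direction, 44 probes met the mirror image of the rule, which is 0.304%. Since the levels at 15 and 5 days chose the 95 probes, their differences between the durations are given as a description and carry no test.

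The arrays came from male C57BL/6J mice with a labelled age of 12 weeks, fed a purified diet and carrying osmotic pumps under the skin. The groups were 20E for 15 days, saline for 15 days, 20E for 5 days and saline for 5 days, with 20E given at 5 mg/kg/day. Each group had 3 pools, and each pool mixed equal amounts of RNA from 3 animals, except 1 saline pool of 2 animals which the labels do not place among the arrays. Every mouse carried a pump, and no group without one was analysed here, so the set compares different mice at 2 times after pump placement and not a treated with an untreated muscle. Spread is therefore measured between pools of animals, not between single mice. The labels name no date, hour or chip position, so duration cannot be told apart from anything in collection or handling that went with it.

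Adult skeletal muscle is made of long fibres that keep a store of myogenic regulators and actin isoforms whose use changes with growth, injury and innervation. Its cells run a circadian clock in which BMAL1, the protein of Arntl, and CLOCK drive repressors of their own activity. Heat shock chaperones of the HSP70 and HSP40 families refold proteins, and their genes respond within hours to heat, exercise and damage through the heat shock factor HSF1. 20E is the moulting steroid of insects and is made by many plants.

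The 85 probes of the set that carry a gene symbol belong to 78 genes, and the other 10 had no symbol in the platform annotation. Actc1, Tmem218, Acot11, Msrb2, Serhl, Mpv17 and Wfdc1 were each read by 2 probes of the set. The difference between the means of 15 and 5 days had a median of 0.44 on the log2 scale, a 1.36-fold level, and ranged from 0.30 to 1.56. Hspa1a and G0s2 alone were at least 2-fold higher, 24 probes were at least 1.5-fold higher, and 39 lay between 0.3 and 0.4. The median level of the 95 probes was 7.69, close to the 7.75 of all probes that could meet the rule. Low probes had the larger differences, with a median of 0.61 for the 15 probes under a level of 6 and 0.37 for the 33 probes between 8 and 10.

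The promoters of genes that head the functional groups are shown because heat shock and actin genes have well known control elements next to their start sites. Arntl, of the clock list, is shown with the CCAAT box, which many promoters hold and which is not particular to clock genes. They are the 250 bases before the transcription start in RefSeq (GRCm38.p6), written 5′ to 3′ on the strand of the gene. Capitals mark the heat shock element core GAANNTTC in Hspa1a, a CArG box (the site of serum response factor) in Actc1, and the CCAAT box, here on the opposite strand as ATTGG, in Arntl. ATTGG also occurs in the promoters shown for Hspa1a, Dnajb1 and Actc1, where it is left in lower case. The promoter of Dnajb1 had no match to the heat shock element core in these bases. The Hspa1a promoter is chr17:34972157-34972406 on the minus strand, that of Dnajb1 chr8:83607925-83608174 on the plus strand, that of Actc1 chr2:114052876-114053125 on the minus strand, and that of Arntl chr7:113207215-113207464 on the plus strand.
Hspa1a: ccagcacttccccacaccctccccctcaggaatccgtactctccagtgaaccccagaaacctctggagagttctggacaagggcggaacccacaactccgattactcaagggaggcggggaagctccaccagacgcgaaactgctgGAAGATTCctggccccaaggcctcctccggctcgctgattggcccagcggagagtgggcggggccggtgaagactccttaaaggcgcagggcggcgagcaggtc
Dnajb1: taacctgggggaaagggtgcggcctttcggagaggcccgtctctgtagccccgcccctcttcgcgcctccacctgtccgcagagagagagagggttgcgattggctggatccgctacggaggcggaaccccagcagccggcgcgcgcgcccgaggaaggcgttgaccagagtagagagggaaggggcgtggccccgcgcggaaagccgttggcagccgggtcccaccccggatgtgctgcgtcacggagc
Actc1: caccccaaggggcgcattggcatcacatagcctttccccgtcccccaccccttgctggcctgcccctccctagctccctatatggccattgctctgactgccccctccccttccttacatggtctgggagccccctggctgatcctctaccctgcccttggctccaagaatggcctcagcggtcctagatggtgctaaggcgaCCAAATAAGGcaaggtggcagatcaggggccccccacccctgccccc
Arntl: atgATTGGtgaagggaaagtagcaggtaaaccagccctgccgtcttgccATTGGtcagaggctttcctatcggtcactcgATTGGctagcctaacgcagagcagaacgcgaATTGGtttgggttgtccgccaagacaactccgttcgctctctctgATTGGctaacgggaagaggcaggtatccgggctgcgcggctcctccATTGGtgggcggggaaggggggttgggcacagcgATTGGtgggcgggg
Searched on both strands, the heat shock element core was found in 3 of the 64 genes of the set with a promoter in the table, which is 4.69%, against 7.73% of 27025 genes in all and 6.06% of the 6833 genes with a probe that could meet the rule. The CArG box with A or T at its middle bases was in 1 of the 64, or 1.56%, against 1.62% of all genes and 1.55% of the genes that could meet the rule. The CCAAT box was in 45.3% of the set, against 37.5% and 40.6%. The GC box GGGCGG was in 62.5%, against 35.4% and 65.4%. The clock E-box CACGTG was in 4.69%, against 6.86% and 10.6%. These matches describe letters and not bound sites.

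Hspa1a, the stress-inducible HSP70, had the largest difference of the set. Its level was 8.18, 7.42 and 7.52 in the 20E pools and 7.36, 8.42 and 7.53 in the saline pools of 15 days, against 5.73, 6.67 and 5.97 in the 20E pools and 6.56, 6.11 and 6.06 in the saline pools of 5 days. The means were 7.74 ± 0.45 at 15 days and 6.18 ± 0.36 at 5 days (SD, n = 6 each), a 2.94-fold level. The lowest array of 15 days exceeded the highest of 5 days by 0.69, the widest gap of the set. Within 15 days, the first 20E pool and the second saline pool stood above the other 4. Hspa1a and its neighbour Hspa1b are near-identical genes, and part of the signal of one may come from the other; the Hspa1b probe differed by 0.60 with overlapping durations.

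Dnajb1, an HSP40 co-chaperone that delivers clients to HSP70, was the other gene of the chaperone list in the set. Its level was 10.70, 10.02 and 10.14 in the 20E pools and 10.25, 10.46 and 10.02 in the saline pools of 15 days, against 9.26, 9.45 and 9.64 in the 20E pools and 9.41, 9.38 and 9.24 in the saline pools of 5 days. The means differed by 0.87, which is 1.83-fold. The first 20E pool and the second saline pool were again the 2 highest of 15 days, while the order of the 5-day pools was not that of Hspa1a.

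The rest of the chaperone list differed less. Of 27 genes, 24 had a tested probe, and 30 probes of them were detected on all arrays. Of these, 24 had a positive difference and 6 a negative one, 2 were in the set and 0 met the rule in the lower direction. Of the 31 tested probes of the list outside the set, 0 passed an adjusted p of 0.05 between durations (limma), and before adjustment 4 fell under 0.05, all higher. That is 12.9%, against 2378 of all 19704 tested probes (12.1%). The p-values are from the contrast of the rule, so these shares are descriptions. The median over the 33 tested probes was 0.07, against 0.0035 over all 19704 tested probes. Hsp90aa1, the inducible HSP90, differed by 0.48, Hspb1 by 0.26, and the 3 probes of the constitutive Hspa8 by 0.11 to 0.26. Hsph1, Bag3 and Hspe1, which heat shock also induces, differed by 0.03, 0.04 and 0.02.

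**Figure D1:**
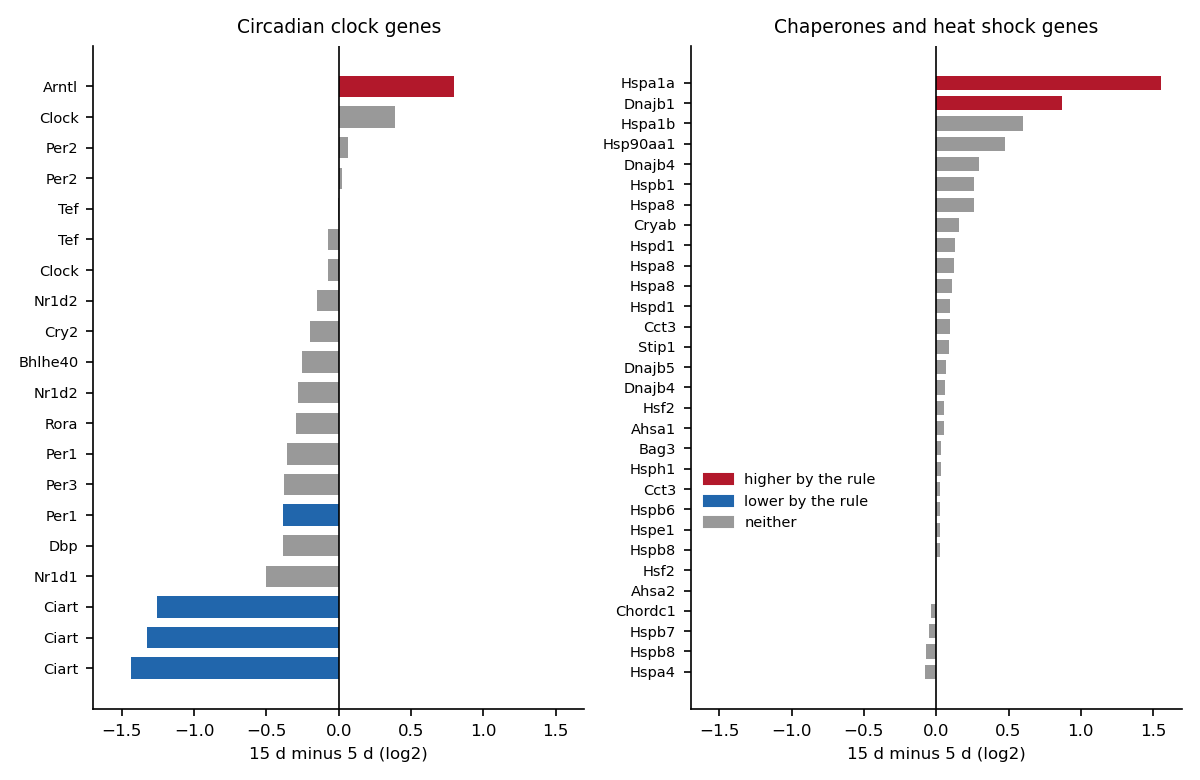
Bars give the difference between the means of 15 and 5 days (log2) for each probe detected on all 12 arrays, labelled by gene, for the circadian clock list (left, 20 probes) and the chaperone and heat shock list (right, 30 probes). Arntl, Hspa1a and Dnajb1 met the rule in the higher direction, and 3 Ciart probes and 1 Per1 probe in the lower direction.

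Arntl encodes BMAL1, an activator of the clock. Its level was 6.88, 6.38 and 6.74 in the 20E pools and 6.67, 6.82 and 6.27 in the saline pools of 15 days, against 6.26, 5.90 and 5.39 in the 20E pools and 5.49, 5.80 and 6.14 in the saline pools of 5 days. The means differed by 0.80, or 1.74-fold. The durations nearly touched, since the third saline pool of 15 days (6.27) lay 0.0079 above the first 20E pool of 5 days.

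Most other clock probes had lower mean levels at 15 days. Of the 19 genes of the list, 15 were tested, and of 20 probes detected on all arrays 4 had a positive and 16 a negative difference; the median over the 25 tested probes was -0.28. Besides Arntl in the set, 4 probes met the rule in the lower direction, of which 3 read Ciart, a repressor of the CLOCK and BMAL1 pair. In the limma fit 2 of the Ciart probes passed an adjusted p of 0.05, the only 2 called lower among all 19704 (0.0102%). The p-values are from the contrast of the rule, whose mirror image picked these probes, so the calls are descriptions and no test. The calls of this contrast, 4 in all, became 0 with the replicate number as a block, 0 without the third 20E and second saline pools of 5 days, 0 without the third 20E and first saline pools of 15 days, and 0 to 7 leaving out 1 array. The 3 Ciart probes differed by -1.43, -1.33 and -1.26; the first had 6.55 ± 0.24 at 15 days and 7.98 ± 0.31 at 5 days (SD, n = 6 each). Per1, a repressor of the core loop, differed by -0.38 and -0.36, Dbp, an output factor driven by BMAL1, by -0.39, and Nr1d1, which encodes the repressor of Arntl REV-ERB alpha, by -0.50. The bright Per2 probes differed by 0.02 and 0.06, and the 2 Clock probes by -0.07 and 0.39. The labels do not give the hour at which muscles were taken, and its part in these differences was not tested.

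Actc1 encodes cardiac alpha-actin, which developing and regenerating skeletal muscle also uses. The brighter of its 2 probes had levels of 11.77, 12.19 and 12.09 in the 20E pools and 12.33, 12.19 and 12.41 in the saline pools of 15 days, against 11.31, 11.11 and 10.98 in the 20E pools and 11.26, 11.07 and 11.36 in the saline pools of 5 days. The second probe had 8.69, 8.81 and 8.84 in the 20E pools and 9.37, 8.86 and 9.10 in the saline pools of 15 days, against 8.19, 7.99 and 8.05 in the 20E pools and 7.67, 7.75 and 8.14 in the saline pools of 5 days. Both probes gave a 1.97-fold difference. At 15 days all 20E pools lay below all saline pools on the dimmer probe, and on the brighter one the second pools of the 2 infusions met.

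Actin genes are alike in sequence, so the part of other actins in these signals is uncertain; the skeletal actin Acta1, a far brighter gene, differed by 0.06. Myod1, the transcription factor that commits cells to the muscle lineage, had 8.49, 8.06 and 8.44 in the 20E pools and 8.05, 8.32 and 7.93 in the saline pools of 15 days, against 7.48, 7.24 and 7.47 in the 20E pools and 7.28, 6.94 and 7.56 in the saline pools of 5 days. Its difference was 0.89, or 1.85-fold, with a gap of 0.37 between the durations.

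In the myogenic list, 11 of 20 genes had a tested probe. Of 16 probes detected on all arrays, 11 had a positive and 5 a negative difference, and the 3 probes of Actc1 and Myod1 were the ones in the set; the median over the 23 tested probes was 0.10. The brighter Myog probe, for the factor that acts after MyoD in fusion, differed by 0.60 with overlapping durations and was detected on 11 arrays. Myf6 differed by 0.01, Chrna1, a subunit of the muscle acetylcholine receptor, by 0.12 and 0.13, and the 3 Myh8 probes, for a developmental myosin, by -0.16 to 0.04.

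G0s2 encodes an inhibitor of adipose triglyceride lipase and is abundant in fat. Its level was 10.99, 10.40 and 10.27 in the 20E pools and 10.10, 10.55 and 10.55 in the saline pools of 15 days, against 9.82, 9.31 and 8.81 in the 20E pools and 9.01, 8.65 and 9.09 in the saline pools of 5 days. The difference was 1.36, or 2.57-fold. Of the 3 fat markers detected on all arrays, Adipoq differed by -0.70, Cidec by -0.996 and Car3 by 0.16. Adipoq and Cidec were highest in the first 20E pool of 5 days (11.17 and 9.60), which also had the highest G0s2 of its duration. The summed level of the fat markers was 15670 to 18640 at 15 days and 13960 to 17680 at 5 days, most of it from Car3, which muscle fibres also make, and Cfd was detected on no array. In RNA from whole muscle, fewer cells of a type and less RNA per cell cannot be told apart.

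**Figure D2:**
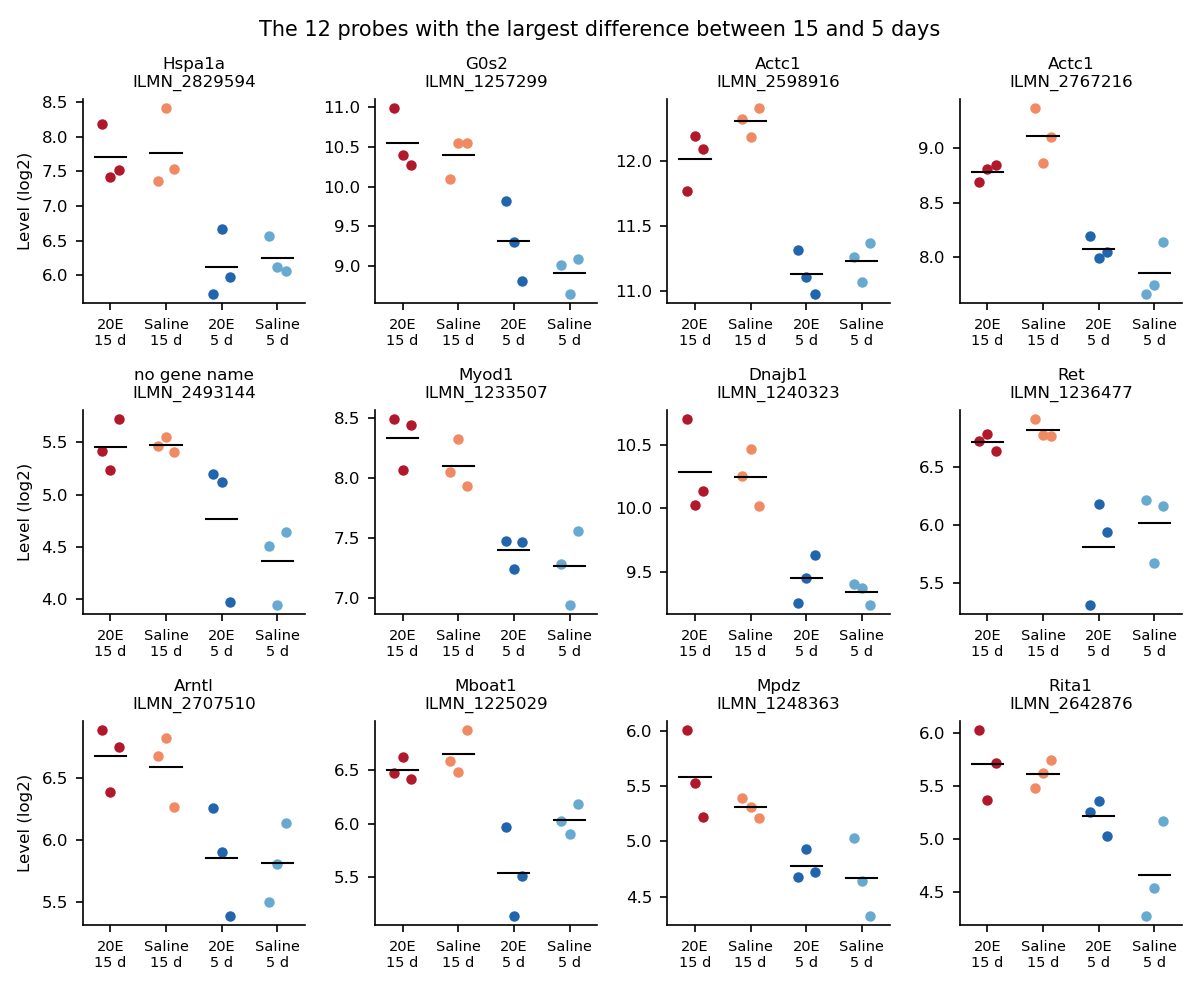
Each panel shows the log2 level of 1 probe in the 12 pools, with 3 points and a line at the mean for each group; the axes do not start at 0 and differ between panels. In each of the 12 panels all pools of 15 days lie above all pools of 5 days, as the rule requires. The 20E and saline pools of a duration mostly overlap.

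Ret and Rita1 joined these genes among the largest differences. Ret, the receptor tyrosine kinase for GDNF ligands, had 6.72, 6.79 and 6.64 in the 20E pools and 6.92, 6.78 and 6.77 in the saline pools of 15 days, against 5.31, 6.18 and 5.94 in the 20E pools and 6.22, 5.67 and 6.16 in the saline pools of 5 days. The 15-day pools were close together (SD 0.09) and the 5-day pools spread widely (SD 0.36). Rita1, whose protein binds the Notch effector RBPJ, was 1.65-fold higher, with 6.03, 5.37 and 5.72 in the 20E pools and 5.48, 5.62 and 5.74 in the saline pools of 15 days, against 5.25, 5.36 and 5.03 in the 20E pools and 4.28, 4.54 and 5.17 in the saline pools of 5 days. Its second 20E pools of the 2 durations almost met.

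Mboat1, a lysophospholipid acyltransferase, was 1.73-fold higher. It had 6.47, 6.62 and 6.42 in the 20E pools and 6.59, 6.48 and 6.87 in the saline pools of 15 days, against 5.97, 5.14 and 5.51 in the 20E pools and 6.02, 5.90 and 6.18 in the saline pools of 5 days. Mpdz, a scaffold with many PDZ domains, was 1.65-fold higher. It had 6.01, 5.53 and 5.22 in the 20E pools and 5.39, 5.31 and 5.21 in the saline pools of 15 days, against 4.68, 4.93 and 4.72 in the 20E pools and 5.03, 4.64 and 4.33 in the saline pools of 5 days. A probe with no gene symbol, ILMN_2493144, was 1.87-fold higher (5.47 ± 0.16 at 15 days and 4.56 ± 0.54 at 5 days, SD, n = 6 each).

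Some genes of growth control and signalling were in the set with smaller differences. Roles here and in the next paragraphs order the genes and were assigned with the values known. Of the 36 probes of the growth signalling list (insulin, IGF, Akt, mTOR) that could meet the rule, 0 were in the set. A positive difference was held by 19 of the 36 (median 0.03), against 52.2% of all probes that could meet the rule. Ddit4l, an inhibitor of mTOR signalling also called REDD2, was the brightest probe of the set. It had 13.56, 13.46 and 13.34 in the 20E pools and 13.56, 13.41 and 13.39 in the saline pools of 15 days, against 12.96, 13.13 and 12.92 in the 20E pools and 13.12, 12.72 and 13.32 in the saline pools of 5 days. The third saline pool of 5 days came within reach of the 15-day pools, and the means differed by 0.43. Ppp1r27, a regulatory subunit gene of protein phosphatase 1 and the next brightest, had 12.18, 12.02 and 12.19 in the 20E pools and 11.97, 11.95 and 12.16 in the saline pools of 15 days, against 11.94, 11.81 and 11.59 in the 20E pools and 11.67, 11.58 and 11.72 in the saline pools of 5 days. Its durations were close at the edge, since the first 20E pool of 5 days lay just under the second saline pool of 15 days. Smad3, which carries signals of TGF-beta and myostatin, had 11.86, 11.81 and 11.92 in the 20E pools and 11.87, 11.86 and 11.77 in the saline pools of 15 days, against 11.41, 11.52 and 11.49 in the 20E pools and 11.57, 11.60 and 11.32 in the saline pools of 5 days. Its 6 pools of 15 days spanned a narrow range (SD 0.05), and the means differed by 0.37.

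Cdkn2b, an inhibitor of cyclin-dependent kinases that TGF-beta induces in other cells, differed by 0.47. Eng, the endothelial co-receptor of TGF-beta family ligands, had 7.98, 8.20 and 8.20 in the 20E pools and 8.0, 7.85 and 8.09 in the saline pools of 15 days, against 7.69, 7.66 and 7.79 in the 20E pools and 7.74, 7.65 and 7.76 in the saline pools of 5 days. Serpinh1, the collagen chaperone HSP47, had 10.73, 10.53 and 10.65 in the 20E pools and 10.66, 10.49 and 10.53 in the saline pools of 15 days, against 10.07, 10.37 and 10.43 in the 20E pools and 10.34, 10.01 and 10.21 in the saline pools of 5 days. Both differed little in size, by 0.34 for Eng and 0.36 for Serpinh1, with no overlap of the durations, as the rule requires of every probe. In the Notch pathway, the target gene Hey1 differed by 0.36 and the atypical ligand Dlk1 by 0.53. The endothelial list, which holds Eng, had 1 probe in the set of 26 that could meet the rule, and 21 of the 26 had a positive difference (median 0.14). The matrix list, which holds Serpinh1, had 1 of 40, with 18 positive (median -0.02).

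Genes of mitochondria made up a further group. Ndufab1, the mitochondrial acyl carrier protein and a complex I subunit, differed by 0.59, Mrpl49 of the mitochondrial ribosome by 0.57, and Gatb, part of the enzyme that makes mitochondrial glutaminyl-tRNA, by 0.60. Their other probes detected on all arrays differed less: by 0.15, 0.16 and 0.30 for Ndufab1, by 0.08, 0.26 and 0.38 for Mrpl49 and by 0.10, 0.10 and 0.18 for Gatb. Rpusd3, a mitochondrial pseudouridine synthase, differed by 0.66. Ppm1k, the phosphatase that activates branched-chain amino acid breakdown, differed by 0.32, Dhodh, an enzyme of pyrimidine synthesis, by 0.31, and Miga2, a promoter of mitochondrial fusion, by 0.33. Msrb2, a mitochondrial methionine sulfoxide reductase, differed by 0.43 and 0.34 on its 2 probes, and Mpv17, of the inner membrane, by 0.34 and 0.32. For most of these the difference was under 1.5-fold.

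Acot11, an acyl-CoA thioesterase, differed by 0.61 and 0.44 on its 2 probes, and the carrier Slc16a9 by 0.57. Excitability and transport genes included the potassium channel subunits Kcng4 (0.41) and Lrrc38 (0.49), the ADP receptor P2ry1 (0.37), and the kinesins Kif1a (0.52) and Kif17 (0.41). Cntfr, the receptor of ciliary neurotrophic factor, differed by 0.35. Genes known from cilia were Rsph1 (0.64), a radial spoke protein, and Tmem218 (0.64 and 0.49), a protein of the ciliary transition zone. Mbp, a marker of Schwann cells, had a level of 192.0 to 419.7 on the linear scale at 15 days and 189.4 to 241.9 at 5 days, and the part of these cells in the neural genes was not tested.

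Tsc22d3, a glucocorticoid-induced leucine zipper gene, entered the set by the smallest gap. Its probe had 9.25, 9.19 and 9.21 in the 20E pools and 9.03, 9.52 and 9.03 in the saline pools of 15 days, against 9.03, 8.97 and 8.64 in the 20E pools and 8.88, 8.78 and 8.72 in the saline pools of 5 days. The durations were 0.00476 apart. The other 2 Tsc22d3 probes differed by -0.03 and 0.09. In the list of atrophy and glucocorticoid genes, 31 probes were detected on all arrays, and 24 of them had a negative difference; 1 was in the set and 3 met the rule in the lower direction. Fbxo32 (atrogin-1) differed by -0.79 to -0.70 on 3 probes, Trim63 (MuRF1), the other main muscle ubiquitin ligase, by -0.41, and Pdk4 by -0.70. The median over the 34 tested probes was -0.28. Of the 33 outside the set, 0 passed an adjusted p of 0.05 (limma), and 14, all lower, fell under 0.05 before adjustment. That is 42.4%, against 12.1% of all tested probes, which include the set. The 33 leave out the Tsc22d3 probe of the set but keep the 3 probes that met the rule in the lower direction. The p-values are from the contrast of the rule, and the list was chosen with earlier results known. These shares are therefore descriptions and no test of the list.

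Across the set, the pools of a duration were not equally far from the other duration. The mean deviation of the 95 probes from their own mean was 0.31, 0.24 and 0.25 in the 20E pools and 0.21, 0.26 and 0.23 in the saline pools of 15 days, against -0.27, -0.17 and -0.27 in the 20E pools and -0.19, -0.38 and -0.22 in the saline pools of 5 days. The second saline pool of 5 days was the lowest array for 40 probes, and the first saline pool of 15 days was the 15-day array nearest to 5 days for 30. Over all probes that could meet the rule, the second saline pool and the third 20E pool of 5 days stood apart on the first principal component (40.2 and 26.9, the other 10 arrays between -15.1 and 3.2), and the third 20E pool and the first saline pool of 15 days lay highest on the second. Without the first pair the rule gave 113 probes, of which 81 were in the set, and without the second pair 170, of which 94 were.

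**Figure D3:**
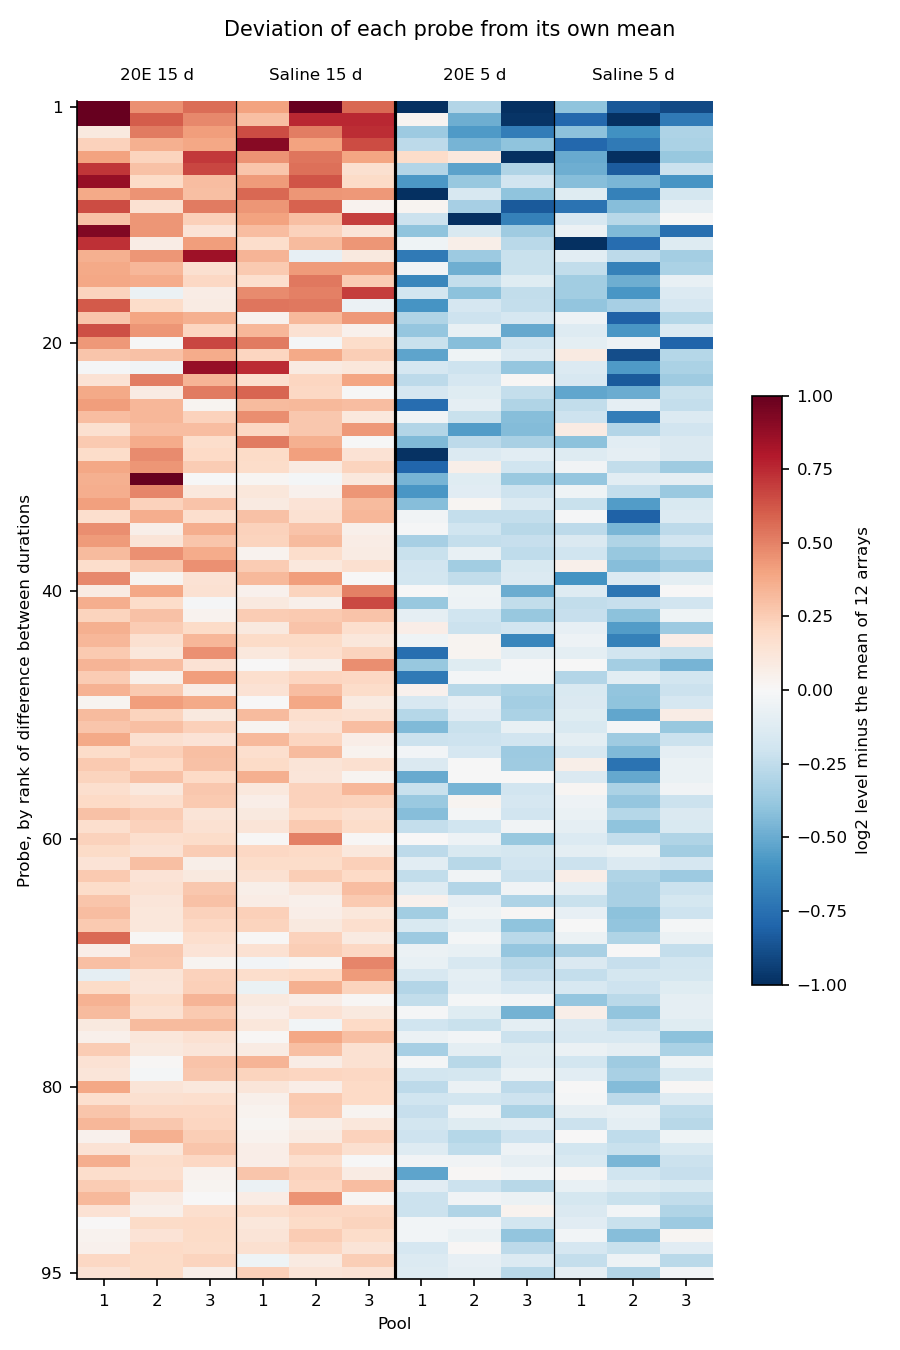
Rows are the 95 probes ordered by the difference between durations, columns the 12 pools, and colour the log2 level minus the mean of the probe over 12 arrays, cut at -1 and 1. The left 6 columns (15 days) are higher and the right 6 (5 days) lower by construction; the second saline pool of 5 days has the deepest mean deviation (-0.38).

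The summed level of the macrophage markers had a lower range at 15 days, which overlapped that of 5 days. For the 3 detected markers it was 615.7 to 1200 at 15 days and 802.3 to 2527 at 5 days, and Cd68 was detected on no array. The second saline pool (2527) and the third 20E pool (1626) of 5 days were highest. The other pools of 5 days read 802 to 926. On probes detected on all arrays, Lyz2 differed by -0.70 and -0.50 and Csf1r by -0.24, but C1qa by 0.07. The median difference of the immune and macrophage list was -0.80 over its 34 tested probes and -0.43 over the 24 that could meet the rule, and 0 of them were in the set. Muscle fibre markers summed to 314300 to 331200 at 15 days and 321700 to 337500 at 5 days, and all 6 were detected on all arrays. Krt10, the only 1 of 4 skin markers detected on all arrays, read 476.3 to 571.1 at 15 days and 393.0 to 481.8 at 5 days. The part of these cells in the levels of the 95 probes was not tested.

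The rule did not use the infusion, so the set was asked next whether the difference between durations was the same under 20E and saline. The median was 0.44 under 20E and 0.41 under saline. The difference was larger under 20E for 47 probes and larger under saline for 48, and under 0.1 apart for 48. The interaction, the 20E difference minus the saline difference, had a median of -0.001 and ranged from -0.56 to 0.62. Before adjustment, 3 probes of the set (3.16%) had a limma p under 0.05, close to the 633 of all 19704 (3.21%) that did. After adjustment 0 of the 19704 passed 0.05. Because the rule needs all 3 pools of both infusions on the right side, it also limits how far 20E and saline can part in the set.

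These data bound the interaction only loosely. The 95% interval extended 0.44 to each side of the estimate for the median probe of the set. It lay within 1 of 0 for 87 probes and within 0.5 of 0 for 39, so a difference as large as the median of 0.44 itself could not be told from none for many of them. For Hspa1a the difference between durations was 1.59 under 20E and 1.53 under saline, and for Arntl 0.82 under 20E and 0.77 under saline. Dnajb1 had 0.84 under 20E and 0.90 under saline, Myod1 0.94 under 20E and 0.84 under saline, and G0s2 1.24 under 20E and 1.48 under saline.

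The 9 probes with an interaction over 0.3 in size had mean levels under 9, in a set whose median level was 7.69. H3c7, a replication-dependent histone H3 gene, had 5.59, 5.68 and 6.09 in the 20E pools and 5.58, 5.16 and 5.34 in the saline pools of 15 days, against 4.53, 4.88 and 5.02 in the 20E pools and 5.13, 4.98 and 4.90 in the saline pools of 5 days. Its interaction was 0.62 (95% interval 0.07 to 1.18, unadjusted p = 0.03062 and adjusted p = 0.9993, limma). Kif1a, a motor that carries synaptic vesicle precursors, had an interaction of 0.58 (-0.18 to 1.33), and 1 pool, the second 20E pool of 15 days at 6.55, stood above the other 5 of its duration (5.43 to 5.80). One of the 2 Serhl probes, a serine hydrolase-like gene, had 0.24 (-0.10 to 0.57).

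Tmem218 had the smallest interaction p in the set. Its dimmer probe had 6.14, 5.86 and 6.00 in the 20E pools and 6.39, 6.42 and 6.61 in the saline pools of 15 days, against 5.73, 5.51 and 5.67 in the 20E pools and 5.57, 5.34 and 5.78 in the saline pools of 5 days. The interaction was -0.55 (-0.96 to -0.14, unadjusted p = 0.01411 and adjusted p = 0.9993, limma), with all saline pools of 15 days above all 20E pools of 15 days. The second Tmem218 probe did not show this split, with 7.69, 7.88 and 7.68 in the 20E pools and 7.81, 7.67 and 7.85 in the saline pools of 15 days. The dimmer Actc1 probe had an interaction of -0.56 (-1.05 to -0.07) and the brighter one -0.19 (-0.63 to 0.25). Ttyh2, a chloride channel family gene, had -0.27 (-0.64 to 0.09). None of these passed the adjustment over all probes.

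**Figure D4:**
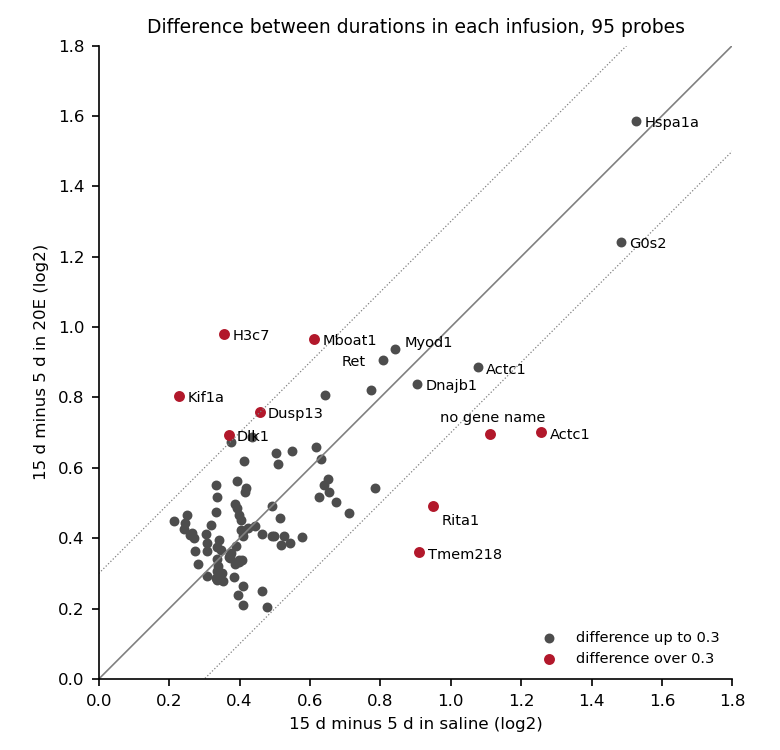
Each point is 1 of the 95 probes, with the difference between 15 and 5 days (log2) under saline on the horizontal and under 20E on the vertical axis; the solid line marks equal differences and the dotted lines 0.3 to each side. Hspa1a and G0s2 lie apart at the top right, and 9 probes in red lie outside the dotted lines.

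No probe of the set passed the test of 20E against saline, nor did any of the 19704 tested, after 15 days, after 5 days or averaged (0 calls in each at an adjusted p of 0.05, limma). Before adjustment, 5 of the 95 (5.26%) fell under 0.05 after 15 days, against 796 of all (4.04%). After 5 days 4 of the 95 (4.21%) did, against 655 (3.32%). Averaged over durations 5 of the 95 (5.26%) did, against 765 (3.88%). Of the 95, 63 were higher and 32 lower in 20E, with a median of 0.03. Among all probes that could meet the rule 50.6% were higher, with a median of 0.0013. The 95 probes read the same pools and are not independent. Over them the second saline pool of 5 days had a mean deviation of -0.38, against -0.19 and -0.22 in the other saline pools of 5 days. Its part in the count of 63 was not tested. The 95% interval of the averaged effect extended 0.22 to each side for the median probe and lay within 0.5 of 0 for 88 of the 95. The rule limits this effect too, since all pools of a duration must lie on the same side of the other duration.

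The probes with the smallest p for the averaged effect in each direction are given here, with sizes that the rule itself limits. The probe ILMN_2703821, with no gene symbol, had 9.78, 9.92 and 9.84 in the 20E pools and 9.49, 9.64 and 9.54 in the saline pools of 15 days, against 9.24, 9.39 and 9.21 in the 20E pools and 9.26, 9.08 and 9.16 in the saline pools of 5 days. It was 0.20 higher in 20E (0.07 to 0.33, unadjusted p = 0.007923 and adjusted p = 0.9993, limma). Miga2 was 0.20 higher (0.04 to 0.35) and Cntfr 0.19 higher (0.03 to 0.35). In the other direction, Mboat1 was 0.32 lower in 20E (interval of the 20E minus saline difference -0.63 to -0.01). The dimmer Tmem218 probe was 0.20 lower (-0.41 to 0.00) and the protease gene Prss23 0.17 lower (-0.36 to 0.02). The brighter Tmem218 probe of the set was 0.06 higher in 20E (-0.23 to 0.36).

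Many of these genes have further probes that the rule did not choose, on the same arrays. Of the 78 genes, 50 had 96 other probes, and 54 of those, for 34 genes, were detected on all arrays. Of the 54, 50 had a positive difference between durations and 4 a negative one, against 52.2% positive among all probes that could meet the rule. The probes in the set for the same genes had a median of 0.40, against 0.20 for the others, and 4 of the 54 had durations that did not overlap, with 15 days higher, against 1.29% of all probes that could meet the rule. They read the same RNA pools and are therefore no independent sample of mice.

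Kcng4 had 2 other probes with 0.73 and 0.44, Ret 1 with 0.62, Inka2 1 with 0.69 and Smad3 1 with 0.47. The probes of some genes disagreed. The probe in the set for Cdk10, a cyclin-dependent kinase gene, differed by 0.52, against -0.11 and -0.04 for its other probes. Dusp13, a dual-specificity phosphatase gene of muscle and testis, differed by 0.61 on its probe in the set, against -0.01 to 0.11 on 3 other and brighter probes. The dim probe in the set for Atp5mpl, a small ATP synthase subunit, differed by 0.44, against 0.03 for a probe with a mean level of 14.64. Which transcripts each probe reads is not given in the files used here.

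**Figure D5:**
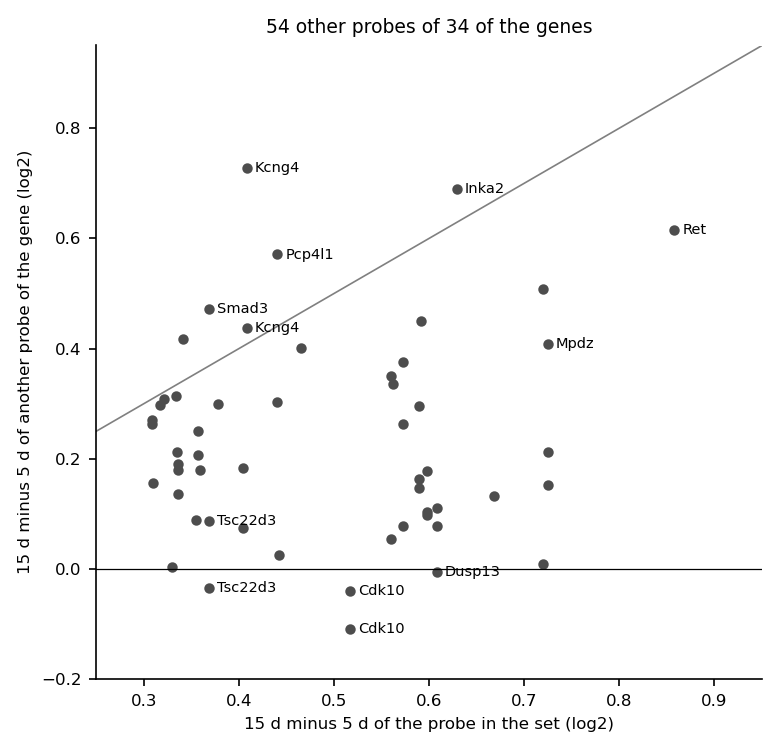
Each point is 1 of 54 other probes of genes in the set, with the difference between 15 and 5 days (log2) of the probe in the set on the horizontal axis (the larger of 2 where there are 2) and that of the other probe on the vertical axis; the line marks equality. Of the points 50 lie above 0, and most lie below the line.

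At the edge of the rule, the members with the smallest differences were 1 Wfdc1 probe at 0.3007 and Nudt8 at 0.3039. Stard10 at 0.2998 and a second Akr1b10 probe at 0.2991 had durations that did not overlap and were left out by the minimum alone. Mkks, with a difference of 0.41, and Ggcx, with 0.44, were left out because their durations overlapped by 0.000706 and 0.00477. With no minimum difference 187 probes (1.29%) were higher at 15 days without overlap and 95 (0.656%) lower.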

How the data were processed

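Expression was read on Illumina bead arrays (MouseWG-6 v2.0). Of the tables deposited by the authors, both that hold these arrays were used. The first holds log2 values deposited for 45281 probes, whose columns share the median 2.91 and whose lowest value, -1, fills 33.8% to 36.4% of each; background subtraction, between-array normalization and the floor were read from the values and are not stated. The second holds detection p-values per the file headers, used over all 12 arrays together. Its 12 signal columns carry names that do not give the duration and were not used. BeadStudio 3.1.3 and limma appear, with no role given, in the submitters' processing notes. On each array 17106 to 18861 probes were detected.

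Symbols came from the platform annotation: 34885 probes had 1 symbol, 18 several and 10378 none, and 34807 matched a RefSeq gene ID.

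A linear model with a mean per group (limma 3.58.1, R 4.3.3; lmFit and eBayes, 8 residual degrees of freedom) was fitted to 19704 probes with detection p under 0.05 on at least 3 arrays, with two-sided tests and Benjamini-Hochberg adjustment over all of them. Intervals are 95% and unadjusted. The fit was tested on simulated data. The number of arrays limits the precision. The 95 probes and 32 gene lists were chosen with earlier results of these data known. Of the lists, 6 hold a probe of the set. Named genes were the 12 largest differences, the smallest p of the interaction and of the averaged 20E effect (3 in each direction), members of the lists, genes with 2 probes, probes at the edge of the rule and the 3 brightest; others named by role were chosen after their values were seen. Alternatives changed the filter, centring, variance model, array weights, a replicate block and the arrays left out. Same-numbered pools of 20E and saline are not said to share anything, and their deviations correlated between -0.32 and 0.03, so the numbers were not taken as pairs.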

Additional observations from a re-analysis of the deposited data

How the results depend on the processing

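The number of arrays limits every count here. The set of 95 probes became 32 with a minimum difference of 0.5, 187 with no minimum, 87 with a detection p under 0.01, and 95 with the brightest probes kept or with arrays centred on their median (93 shared). Leaving out 1 array gave 99 to 148 probes, the most without the second 20E pool of 5 days (94 shared), and leaving out the third 20E and first saline pools of 15 days, an alternative added after seeing the data, gave 170. For the interaction, 0 calls became 10 with no filter on dim probes, 0 to 1 leaving out 1 array and 1 without the added pair of 15 days. For 20E against saline, 0 calls after 5 days became 17 with no filter, 0 to 1 leaving out 1 array and 2 without the third 20E and second saline pools of 5 days (also added); 0 after 15 days became 6, 0 to 2 and, without the pair of 15 days, 1; 0 averaged over durations became 10, 0 to 1 and 1. For 15 against 5 days, the contrast of the rule, 4 calls became 21 with no filter, 91 with trend and robust variances, 14 where detection on all arrays was required, 0 with the replicate block, 0 without either pair and 0 to 7 leaving out 1 array. Under 20E alone 0 became 5 with no filter, 4 with trend and robust variances, 1 without the pair of 5 days and 0 to 2 leaving out 1 array; under saline alone 0 became 15, 4, 1 without the pair of 5 days, 2 without that of 15 days and 0 to 3. The replicate block left the other counts at 0 and changed no other call. A requirement of no overlap is easier to meet with fewer arrays, so the set can grow by the rule itself when arrays are left out. The cause of the other changes was not tested. The differences of the named probes between durations all kept their direction and moved by less than 1 SD within groups under the alternatives run (629 values), and their interaction and 20E values (240) kept their direction and stayed above an adjusted p of 0.05. A normexp and quantile processing of the signals was planned and not run, since the signal columns could not be tied to durations by name.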

Other observations

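Some gene groups with few or no probes in the set leaned together by small amounts. In the tricarboxylic acid cycle list 24 of 27 probes that could meet the rule had a positive difference between 15 and 5 days, with a median of 0.12, in the slow fibre list 22 of 25 (0.18), in the oxidative phosphorylation list 17 of 17 (0.19) and in the fatty acid list 21 of 28 (0.10). Among all probes that could meet the rule 52.2% were positive, with a median of 0.0079. None of these 4 lists held a probe of the set, and 0 of their probes passed an adjusted p of 0.05 between durations (limma). The oxidative phosphorylation list does not contain Ndufab1 and Atp5mpl, subunit genes of complex I and of ATP synthase that are in the set. Over all tested probes 12.1% had an unadjusted p under 0.05. Such p-values were held by 9 higher and 0 lower of the 31 tested probes of the tricarboxylic acid cycle list, 0 of the 28 of the slow fibre list, 15 higher and 0 lower of the 39 of the oxidative phosphorylation list, and 4 higher and 2 lower of the 33 of the fatty acid list. On the other side, 2 of 30 probes of the interferon response list had a positive difference (median -0.31), 3 of 15 of the lipogenesis and adipocyte list (-0.28), 5 of 21 of the cell cycle list (-0.22) and 6 of 42 of the proteasome list (-0.06). An unadjusted p under 0.05 (limma) was held by 0 higher and 4 lower of the 36 tested probes of the interferon response list (11.1%). It was held by 1 higher and 3 lower of the 20 of the lipogenesis and adipocyte list (20.0%). In the cell cycle list 1 higher and 7 lower of 27 did so (29.6%), and in the proteasome list 0 higher and 2 lower of 46 (4.35%). These lists were chosen with earlier results of these data known, and the counts are descriptions.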
